A study of Mus musculus with 2 samples.

Results

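The genes described here are 8 genes that encode executors and switches of programmed cell death, namely Casp1, Casp4, Casp8, Casp9, Ripk3, Mlkl, Gsdmd and Gsdme. They were taken by gene symbol from a table of 45777 genes, and all 8 symbols were found. The table holds 2 poly(A) RNA libraries of YTN16, an established mouse gastric cancer cell line. Both cultures expressed a short hairpin RNA and were grown in DMEM with 10% fetal bovine serum, 0.1% MITO+ serum extender and antibiotics. The library called shControl came from cells with a control hairpin whose genotype is given as WT, and the library called shGas6 from cells with a hairpin against Gas6, a secreted ligand of the receptor AXL. The series was set up around GAS6 and AXL in the response to immunotherapy. Whether either line was a clone or a pool, and the sequence of either hairpin, is not given in the sources used here.

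There was 1 library per group. Every value below is therefore a difference between 2 libraries with no replicate check, no test was possible, and the 95% intervals in brackets cover counting error only. The libraries held 50756676 and 51807140 counts. Gas6 itself was at 29.0% of the control level in shGas6 (26.6% to 31.5%). Of 10 epithelial markers 7 were measured, meaning that they reached 1 CPM (1 count in 1000000 of the scaled library total) in shControl, in shGas6 or in both. All 10 summed to 4531 CPM in shControl and 6983 CPM in shGas6, most of it from Krt8, Krt18 and Krt19. Krt7 (116 and 1095 counts) was 9.28-fold higher in shGas6, Krt18 2.40-fold higher and Ocln (333 and 102 counts) 3.32-fold lower. The other measured epithelial markers stayed within 2-fold. Epcam was at 0.629 and 0.503 CPM and Cldn7 at 0 counts in both. Of 8 gastric markers, Tff1 (615 and 497 counts) and Tff2 (993 and 93 counts, 10.9-fold lower) were measured, and all 8 summed to 31.6 and 11.6 CPM, while Muc5ac, Muc6, Gkn1, Gkn2 and Atp4a had 0 counts in both libraries. Of 12 leukocyte markers 3 were measured and all 12 summed to 8.04 and 8.16 CPM. Among them Laptm5 had 8 and 71 counts, Ptprc had 23 and 8, and Tyrobp and Adgre1 had 0 counts in both. Of 5 endothelial markers, Cdh5 (601 and 193 counts) and Vwf (76 and 9 counts) were measured, and all 5 summed to 13.9 and 4.47 CPM. The 7 fibroblast markers summed to 1.44 and 2.51 CPM. The part of these marker differences in the results below was not tested.

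Caspases are cysteine proteases that cut after aspartate. In apoptosis, death receptors activate caspase-8 and the mitochondrial route activates caspase-9, and both set off a proteolytic cascade. In pyroptosis, inflammatory caspases (caspase-1, and in the mouse the product of Casp4, also called caspase-11) cut gasdermin D, whose released fragment makes pores in the plasma membrane. Gasdermin E is a further pore former of the same family. Necroptosis runs through the kinase RIPK3, which phosphorylates the pore-forming pseudokinase MLKL, and active caspase-8 restrains it. Which of these routes a cell can take depends in part on which of the proteins it makes.

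Ripk3 and Casp1 differed most between the libraries, in opposite directions, and the other 6 genes lay within 1.5-fold. Ripk3 was the 1 gene higher in shGas6 by 2-fold or more, as were 8.64% of 13367 measured genes. Casp1 was the 1 gene lower by 2-fold or more, as were 6.19% of measured genes. In either direction 14.8% of measured genes lay past 2-fold, so 2 of 8 is a small number from which nothing can be read about the 8 genes as a set. All 8 passed the filter of 1 CPM in both libraries. Of their log2 ratios (shGas6 over shControl), 4 were above 0 and 4 below, and the median was 0.0032, beside -0.01 over all measured genes.

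**Figure D1:**
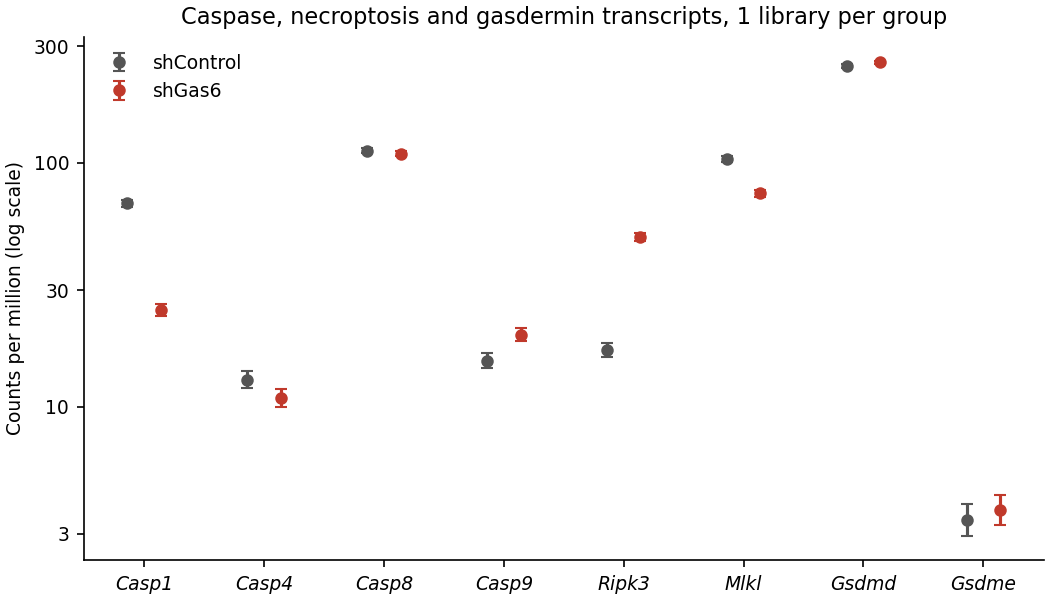
Level of each of the 8 genes in the control (grey) and the Gas6 hairpin (red) library, in CPM on a log axis, with 1 library per group. Bars are exact 95% Poisson intervals of the count. Casp1 went from 68.1 to 24.8 CPM and Ripk3 from 17.0 to 49.7 CPM, while the points of Casp8 and Gsdmd lie almost level.

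**Figure D2:**
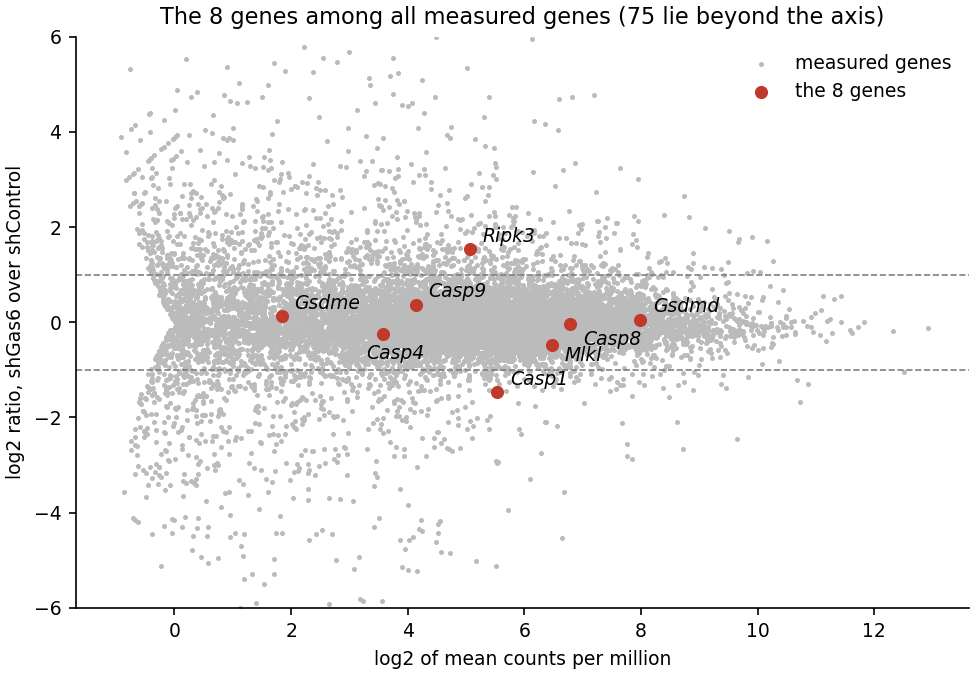
Each measured gene by its mean level (x, log2 of CPM) and its log2 ratio, shGas6 over shControl (y), with the 8 genes in red and dashed lines at 2-fold. Casp1 and Ripk3 lie outside the dashed lines and the other 6 genes inside, and 75 genes lie beyond a log2 ratio of 6 in size and are not drawn.

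Among the inflammatory caspases, Casp1, which encodes the protease that matures interleukin-1 beta and interleukin-18, was the lower gene. Casp1 (NCBI gene 12362, GRCm38 chromosome 9, 5298517 to 5307281, plus strand, 10 exons in the principal GENCODE transcript) had 3464 counts in shControl and 1285 in shGas6. These correspond to 68.1 and 24.8 CPM. The level in shGas6 was 2.74-fold lower (2.57 to 2.93), a log2 ratio of -1.46, and 3.70% of measured genes had a lower ratio. Casp4 (gene 12363, chromosome 9, 5308849 to 5336791, plus strand), whose product senses cytosolic lipopolysaccharide in the mouse, had 656 and 561 counts. At 12.9 and 10.8 CPM it was 1.19-fold lower in shGas6 (1.06 to 1.33). The counting interval excluded a ratio of 1, but the difference was small. The 2 genes therefore did not differ to the same extent: the count of Casp1 relative to that of Casp4 was 2.31-fold lower in shGas6 (2.03 to 2.62).

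Casp1 and Casp4 are neighbours, 1568 bases apart, and the next gene after Casp4, 8651 bases on, is Casp12, a further member of the inflammatory caspase group. Casp12 had 1028 counts in shControl and 110 in shGas6, 20.2 and 2.13 CPM, and was 9.51-fold lower (7.80 to 11.7). The gene in the middle of this run of 3 was thus the least different, and those on either side were both past 2-fold. Of the 6 other measured genes within 1 Mb of the start of Casp1, Casp12 was the 1 gene past 2-fold. The median log2 ratio of the 50 nearest measured genes was -0.15 for both Casp1 and Casp4. After that median was subtracted, the log2 ratio was -1.30 for Casp1 and -0.10 for Casp4. Without a stated strand setting and with related sequences, some reads may be shared among these caspases, and their split was not tested.

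The stretches of 250 bases before the starts of Casp1 and Casp4 are shown because these genes adjoin yet differed unequally. They come from RefSeq on GRCm38.p6, plus strand, at chr9:5298267-5298516 for Casp1 and chr9:5308599-5308848 for the first of 2 listed Casp4 starts. Capitals mark matches to any of 3 motifs searched on both strands. These were GAAANNGAA, the core that interferon regulatory factors bind, GGNNNTTCC, bound by NF-kB, and the GC box GGGCGG.
Casp1: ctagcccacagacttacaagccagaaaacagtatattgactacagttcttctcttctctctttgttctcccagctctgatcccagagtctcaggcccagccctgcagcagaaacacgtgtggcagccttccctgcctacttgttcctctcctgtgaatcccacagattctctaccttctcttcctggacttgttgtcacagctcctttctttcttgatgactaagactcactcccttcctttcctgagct
Casp4: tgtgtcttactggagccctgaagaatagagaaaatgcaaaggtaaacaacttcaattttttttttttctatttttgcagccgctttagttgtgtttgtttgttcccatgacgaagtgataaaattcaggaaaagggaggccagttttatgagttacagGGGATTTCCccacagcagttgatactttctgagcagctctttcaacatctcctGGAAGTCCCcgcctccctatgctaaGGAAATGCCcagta
The Casp4 stretch held 3 NF-kB matches, at 92 to 84, 39 to 31 and 14 to 6 bases before the start, and the Casp1 stretch held no match to any of the 3. Among 32851 RefSeq promoter stretches of the same length, 15.7% held the NF-kB motif and 0.0944% held it at least 3 times. The motif of the interferon regulatory factors was in 7.13% of them and the GC box in 32.7%. G and C made up 49.2% of the Casp1 stretch and 41.6% of the Casp4 stretch, beside a median of 52.4%, and the stretches held 1 and 3 CG dinucleotides, beside a median of 6. These are matches of letters only.

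Ripk3, the kinase that starts necroptosis, was the higher gene. Ripk3 (gene 56532, chromosome 14, 55784995 to 55788857, minus strand, 10 exons) had 865 counts in shControl and 2573 in shGas6, 17.0 and 49.7 CPM. The level in shGas6 was 2.92-fold higher (2.71 to 3.16), a log2 ratio of 1.55, and 95.2% of measured genes had a lower ratio. The long non-coding gene Gm32092, which overlaps Ripk3, had 0 counts in both libraries. The median log2 ratio of the 50 nearest measured genes was 0.04, and with it subtracted Ripk3 stood at 1.504. Of 45 other measured genes within 1 Mb of the Ripk3 start, 9 were higher by 2-fold or more in shGas6 and 0 lower by as much. Over all measured genes the shares were 8.64% and 6.19%. A gene that passes the filter through shGas6 alone can count as higher but not as lower, and such genes were not set apart. Among the 50 nearest genes, the numbers higher and lower were 10 and 0 for Ripk3, 10 and 2 for Casp9, and 8 and 0 for Gsdmd. They were 2 and 7 for Casp1, 2 and 8 for Casp4 and Gsdme, 1 and 3 for Casp8, and 0 and 3 for Mlkl. The stretch of 250 bases before the start is shown as the counterpart of the Casp1 stretch (chr14:55788858-55789107, minus strand).
Ripk3: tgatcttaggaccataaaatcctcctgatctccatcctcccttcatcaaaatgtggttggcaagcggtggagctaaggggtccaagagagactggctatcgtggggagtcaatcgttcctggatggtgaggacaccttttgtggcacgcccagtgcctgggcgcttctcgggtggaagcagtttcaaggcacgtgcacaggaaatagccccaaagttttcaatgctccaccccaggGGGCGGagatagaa
It held 1 GC box, at 14 to 9 bases before the start, and no match to the other 2 motifs, with 54% G and C and 8 CG dinucleotides.

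**Figure D3:**
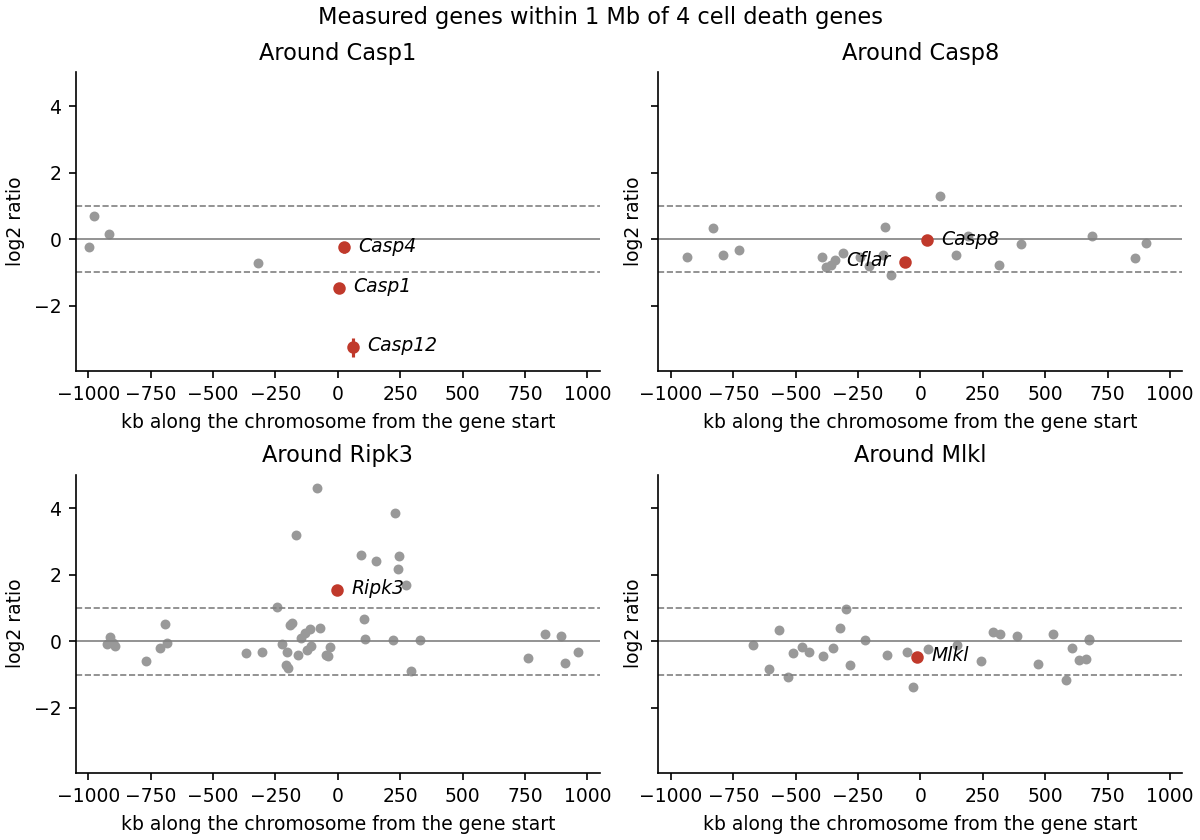
Log2 ratio, shGas6 over shControl, of measured genes within 1 Mb of the starts of Casp1, Casp8, Ripk3 and Mlkl, by distance in kb along the chromosome. Named genes are red with 95% counting intervals and dashed lines mark 2-fold. Casp12 and Casp1 lie below -1 with Casp4 between them, and 9 genes besides Ripk3 lie above 1 in the Ripk3 panel.

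Mlkl, whose product RIPK3 phosphorylates, was not higher along with Ripk3. Mlkl (gene 74568, chromosome 8, 111311255 to 111338479, minus strand, 11 exons) had 5261 counts in shControl and 3872 in shGas6, 103 and 74.9 CPM. It was 1.38-fold lower in shGas6 (1.33 to 1.44). Of 50 nearest measured genes, 0 were higher by 2-fold and 3 lower, and their median log2 ratio was -0.21, beside -0.47 for Mlkl. On the per-length scale of the deposited TPM, there were 0.181 Ripk3 transcripts per Mlkl transcript in shControl (0.169 to 0.195) and 0.725 in shGas6 (0.690 to 0.762). The count of Ripk3 relative to that of Mlkl was 4.04-fold higher in shGas6 (3.70 to 4.41). Relative to Ripk1, the kinase that recruits RIPK3 below death receptors, the TPM ratio of Ripk3 was 0.721 in shControl and 1.91 in shGas6.

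The initiator caspases differed little. Casp8 (gene 12370, chromosome 1, 58795233 to 58847503, plus strand, 9 exons) had 5697 and 5637 counts, 112 and 109 CPM. Its fold, 1.03-fold lower in shGas6 (0.991 to 1.07), had a counting interval that included 1. The genes around it were mostly lower: the 50 nearest measured genes had a median log2 ratio of -0.44, and the 782 measured genes of chromosome 1 one of -0.32. With the median of its 50 neighbours subtracted, Casp8 stood at 0.40. Cflar, which lies 36349 bases before Casp8 and encodes cFLIP, the catalytically inactive relative that limits caspase-8, had 6191 and 3884 counts and was 1.62-fold lower (1.56 to 1.69). The TPM ratio of Casp8 to Cflar was 2.36 in shControl (2.28 to 2.45) and 3.60 in shGas6 (3.45 to 3.75), and the count of Casp8 relative to Cflar was 1.58-fold higher (1.49 to 1.67).

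Casp9 (gene 12371, chromosome 4, 141793612 to 141815978, plus strand, 9 exons) had 784 counts in shControl and 1020 in shGas6, 15.4 and 19.7 CPM, and was 1.28-fold higher (1.16 to 1.41). Its nearest measured neighbour on one side, the co-chaperone gene Dnajc16, had 757 and 967 counts and was 1.26-fold higher. On the other side Efhd2 had 2416 and 2156 counts and was 1.14-fold lower. The 50 nearest measured genes had a median log2 ratio of 0.28, beside 0.35 for Casp9. Cela2a, which overlaps the end of Casp9, had 1 count in shControl and 0 in shGas6. The TPM ratio of Casp9 to Apaf1, the scaffold that activates it, was 0.586 and 0.645, and the change of their relative counts had an interval that included 1 (0.989 to 1.23).

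Of the gasdermins, Gsdmd was the most abundant of the 8 genes and Gsdme the least. Gsdmd (gene 69146, chromosome 15, 75862144 to 75867408, plus strand, 11 exons) had 12709 and 13352 counts, 249.97 and 258 CPM, 1.03-fold higher in shGas6 (1.01 to 1.06). The interval excluded 1, but the log2 ratio of 0.046 moved to 0.0050 with upper-quartile scaling and to 0.093 on the deposited TPM. The 50 nearest measured genes had a median log2 ratio of 0.23, and with it subtracted Gsdmd stood at -0.19. Gsdme (gene 54722, chromosome 6, 50207401 to 50263857, minus strand) had 174 and 195 counts, 3.42 and 3.77 CPM. Its fold of 1.10 had an interval that included 1 (0.893 to 1.36), so at this depth the counts did not settle its direction. Per length, there were 88.2 Gsdmd transcripts per Gsdme transcript in shControl and 81.8 in shGas6. The TPM ratio of Casp1 to Gsdmd, its substrate, was 0.322 in shControl (0.310 to 0.335) and 0.114 in shGas6 (0.108 to 0.121).

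On the deposited TPM scale, which allows levels of different genes to be set side by side, the order in shControl ran from Gsdmd (277) through Mlkl (98.6), Casp8 (90.8), Casp1 (89.3), Casp4 (17.9), Ripk3 (17.9) and Casp9 (7.84) to Gsdme (3.14). The Poisson intervals of Casp8 and Casp1 overlapped (88.5 to 93.2 and 86.3 to 92.3), as did those of Casp4 and Ripk3 (16.6 to 19.4 and 16.7 to 19.1), and those of the other neighbours in the order did not. In shGas6 the order was Gsdmd (296), Casp8 (91.5), Mlkl (74.7), Ripk3 (54.1), Casp1 (33.7), Casp4 (15.5), Casp9 (10.4) and Gsdme (3.61), with no overlap between neighbours. Ripk3 thus stood below Casp1 in shControl and above it in shGas6.

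**Figure D4:**
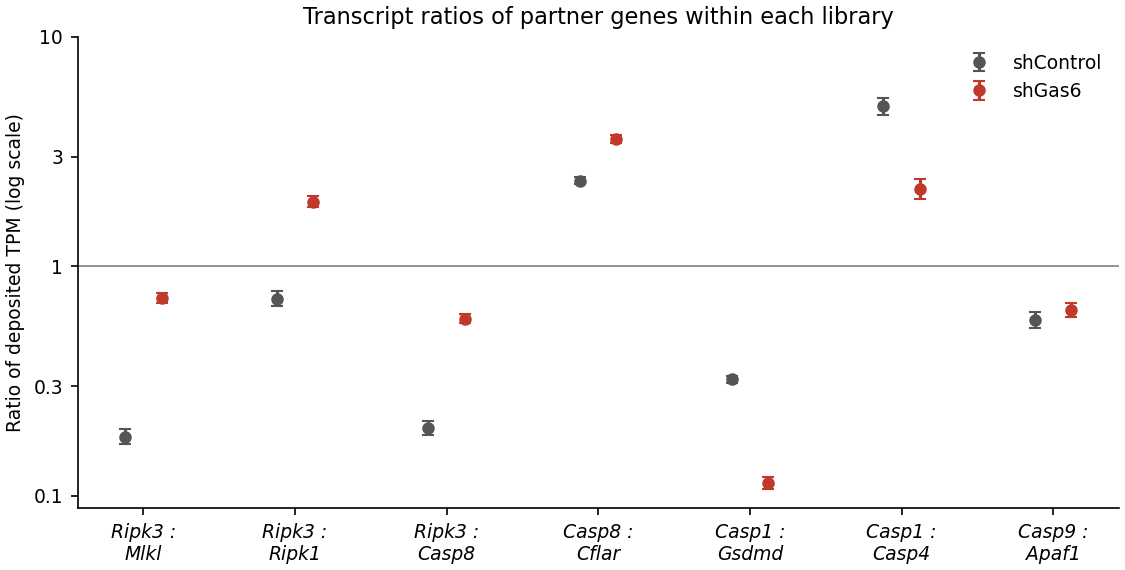
Ratio of the deposited TPM of partner genes within each library, on a log axis, with the control in grey and the Gas6 hairpin in red. Bars are approximate 95% counting intervals. The ratio of Ripk3 to Mlkl moved from 0.181 to 0.725 and that of Casp1 to Gsdmd from 0.322 to 0.114, while Casp9 to Apaf1 stayed near 0.6.

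Further genes of these pathways were read from 10 lists. The lists hold 100 genes, of which 75 were measured. Past 2-fold lay 9 higher and 4 lower genes. That is 17.3%, beside the 14.8% of all measured genes. The median log2 ratio was 0.06.

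Among 4 further caspases, 3 were measured, all 3 ratios were below 0, and the median log2 ratio was -0.59, beside -0.01 for all measured genes. Of these, Casp12 passed 2-fold. Casp6, an effector caspase, was at 10.9 and 7.27 CPM and at 66.6% of the control level (58.3% to 76.0%). Casp2 was 1.04-fold lower with an interval that included 1 (0.984 to 1.09), and Casp14, a caspase of the epidermis, had 0 counts in both libraries.

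Of 9 apoptosome genes and inhibitors of apoptosis, 0 passed 2-fold, 6 ratios were above 0 and the median was 0.17. Cycs, which encodes cytochrome c, had 210 and 236 CPM, and Birc5, which encodes survivin, had 161 and 134 CPM. The largest ratios were those of Birc3 (68.1 and 124 CPM, 1.82-fold higher, 1.75 to 1.90) and Xiap (89.7 and 147 CPM, 1.64-fold higher, 1.58 to 1.71), both ubiquitin ligases that restrain caspases. Htra2, a mitochondrial protease that counteracts them, was 1.44-fold lower (1.37 to 1.52).

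Of 10 death receptors and ligands, 7 were measured. Past 2-fold lay 1 higher and 1 lower gene, and the median was -0.16. Tnf, a ligand that can feed into Casp8 or Ripk3, had 196 and 1697 counts and was 8.51-fold higher (7.34 to 9.92). Tnfsf10, which encodes TRAIL, had 60 and 12 counts and was 5.09-fold lower (2.71 to 10.4). It passed the filter through shControl alone, and its log2 ratio of -2.30 moved to -1.55 on the deposited TPM and to -1.14 on the FPKM, each with 0.1 added. The receptors Tnfrsf1a (186 and 166 CPM), Tnfrsf1b (144 and 97.1 CPM), Fas (17.7 and 13.4 CPM) and Tnfrsf10b, the mouse TRAIL receptor (36.2 and 62.3 CPM), stayed within 2-fold. Of the other ligands, Fasl had 0 counts in both and Lta 3 and 4.

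All 14 adaptors and checkpoints below death receptors were measured. Past 2-fold lay 2 higher and 0 lower genes, and the median was 0.10. Tnfaip3, which encodes the ubiquitin-editing protein A20 and limits both apoptosis and necroptosis, had 3772 and 12407 counts and was 3.23-fold higher (3.12 to 3.35). Traf2, an adaptor that recruits BIRC2 and BIRC3, had 1828 and 4590 counts and was 2.47-fold higher (2.34 to 2.61). The adaptor Fadd (23.3 and 26.6 CPM) and the kinase Ripk1 (59.6 and 65.6 CPM) were 1.14-fold and 1.10-fold higher. Of 8 necroptosis partners of RIPK3 and MLKL, which again include Ripk1, Tlr3 alone passed 2-fold, and the median was -0.04. Tlr3, a receptor for double-stranded RNA, was at 47.7 and 10.8 CPM, 4.44-fold lower (4.05 to 4.88). Zbp1, a nucleic acid sensor that binds RIPK3, had 474 and 243 counts and was 1.98-fold lower (1.70 to 2.33), just inside the 2-fold mark. On the deposited TPM its log2 ratio was -1.19, past that mark. Besides Ripk1, the others of this list also stayed within 2-fold. They were Adar (135 and 161 CPM), Stub1 (96.0 and 95.5 CPM), Pgam5 (78.2 and 74.9 CPM), Ppm1b (68.9 and 77.4 CPM) and Ticam1 (30.3 and 27.2 CPM).

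Inflammasome genes were present in part. Of 15 sensors and the adaptor, 14 were in the table and 10 measured. Past 2-fold lay 3 higher and 0 lower genes, and the median was -0.21. Pycard, which encodes the adaptor ASC that links most sensors to caspase-1, had 0 and 2 counts, under the 3 counts that a count of 0 allows. Nlrc4 (1394 and 1295 counts), which can bind caspase-1 directly, Aim2, the sensor of cytosolic DNA (4725 and 3375 counts), and Nek7, a partner of NLRP3 (9071 and 8109 counts), were measured and within 2-fold. Naip1, one of a family whose close copies may share reads, was 4.09-fold higher (3.79 to 4.43), while Naip2, Naip5 and Naip6 were between 1.18-fold and 1.55-fold lower. Nlrp3 had 16 and 91 counts, and Nlrp6 had 0 and 101 counts. Both passed the filter of 1 CPM through shGas6 alone, so their direction was set by the filter, and the log2 ratio of Nlrp3 moved from 2.45 to 1.58 on the deposited FPKM. Among the outputs, Il1b had 0 counts in both libraries and Il18 769 and 712. Il33, an alarmin of epithelia, had 10970 and 22361 counts, a log2 ratio of 1.003, just past the 2-fold mark, and fell just short of it with 2 other scalings (0.998 and 0.961). Ninj1, which carries out membrane rupture after gasdermin pores form, was 1.19-fold higher (1.12 to 1.26). Of 8 other gasdermin genes none was measured.

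Of 18 BCL2 family genes 13 were measured. Past 2-fold lay 2 higher genes and 1 lower gene, and the median was 0.07. Pmaip1 (NOXA, 114 and 251 CPM) and Bbc3 (PUMA, 4.60 and 11.3 CPM), both killers of the BH3-only class, were 2.21-fold and 2.46-fold higher. Bmf, of the same class, was 3.84-fold lower (3.45 to 4.28). Bid, which caspase-8 cuts to reach the mitochondria, had 3609 and 5616 counts and was 1.53-fold higher (1.47 to 1.60). The most abundant others were Mcl1 (134 and 141 CPM), Bok (107 and 130 CPM) and Bcl2l1 (90.1 and 100 CPM), all within 2-fold. Bcl2, Bak1 and Bax were 1.34-fold, 1.31-fold and 1.06-fold lower. Of the 13 ratios, 8 were above 0 and 5 below.

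Of 8 transcription factors known to act on one or more of the 8 genes, 7 were measured and 0 passed 2-fold, with a median of 0.25. Rela, an NF-kB subunit, had 3330 and 4882 counts and was 1.44-fold higher (1.38 to 1.51), and its partner Nfkb1 had 8212 and 8027 counts. The interferon regulatory factor genes Irf9 and Irf1 were 1.48-fold (1.41 to 1.55) and 1.30-fold higher, and Irf2 was 1.05-fold lower. Irf8 had 0 and 2 counts.

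**Figure D5:**
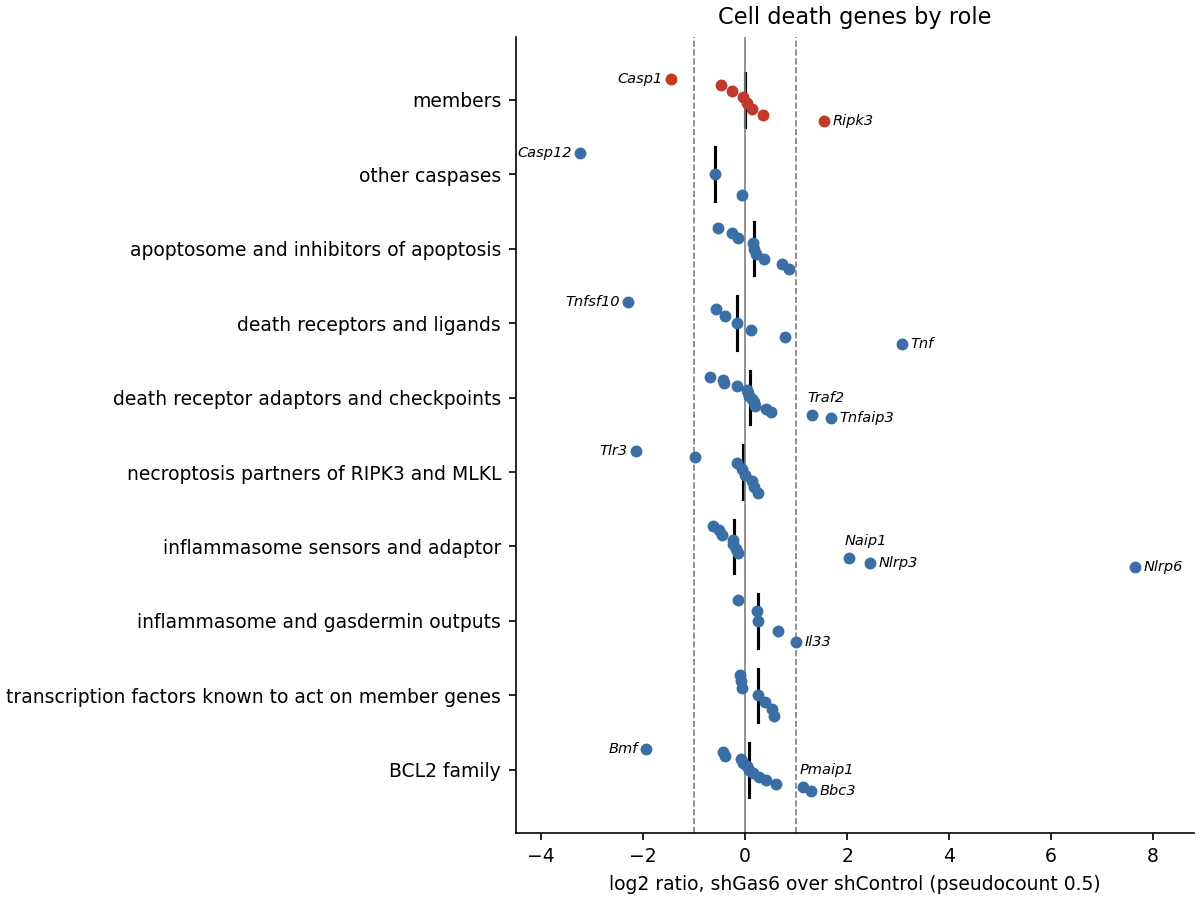
Log2 ratio, shGas6 over shControl, of the 8 genes (red) and of the measured genes of 9 lists (blue), with the median of each as a black line and dashed lines at 2-fold. Genes past 2-fold are named. The further caspases lie below 0, and most genes of the other lists lie between the dashed lines.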

How the data were processed

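Total RNA of 2 YTN16 cultures was sequenced after stranded mRNA library preparation, per the labels' protocols. Trimmomatic and the build GRCm38 (mm10) are named in the submitters' processing notes. No aligner, counting tool, strand setting or annotation release is given in the sources used here, so antisense reads could not be told apart. Per the file headers, the authors deposited a raw read count, an FPKM value (per transcript length and library size) and a TPM value (scaled to a fixed total) for each of 45777 genes.

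Counts were scaled with TMM (edgeR 4.0.16, R 4.3.3) over all genes. Genes that reached 1 CPM in either library, 13367 in all, were called measured. The log2 ratio used scaled counts plus 0.5, and genes at a fold of 2 or more by that ratio were counted as higher or lower. Folds are ratios of scaled counts without the pseudocount, with exact (Clopper-Pearson) 95% intervals of the binomial split (scipy 1.17.1). Intervals of CPM and TPM are exact Poisson ones, and those of ratios between genes use a normal approximation on the log scale. All cover counting error only, and PCR copies can make them too narrow. A count of 0 allows a level of up to 3 counts, or 0.0590 CPM in shControl and 0.0580 CPM in shGas6. With 1 library per group no p-value is given. Coordinates are from RefSeq on GRCm38.p6 (45679 of 45777 genes matched by identifier), and strands and exons from GENCODE M21. Promoter sequences were found for 7 of the 8 genes (not Gsdmd), as 250 bases before each listed start.

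The genes and lists were chosen with earlier results of these data known. The text names the 8 genes, Gas6, listed genes past 2-fold, some of the most abundant others (at most 4 a list by the rule), and nearest neighbours. Some genes of these pathways are not reported here. Further listed genes and genes at 0 were named after their values were seen. The procedure was run on simulated counts drawn with counting error only. These held no variation between cultures, so the run could not show how well the calls hold without replicates. Alternatives were total-count, DESeq2 1.42.0 and upper-quartile scaling, the deposited TPM and FPKM (0.1 added), a pseudocount of 5, filters of 1 count and 5 CPM, thresholds of 1.5-fold and 4-fold, the whole interval past 2-fold, and subtraction of the median of the 50 nearest genes.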

Additional observations from a re-analysis of the deposited data

How the results depend on the processing

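No paired analysis was possible because there was 1 library per group. The counts of 1 gene higher (Ripk3) and 1 lower (Casp1) were the same under the alternatives run, except at a 4-fold threshold, where both were 0. The median log2 ratio of the 8 genes (0.0032) ranged from -0.04 to 0.05, with its highest value, 0.052, on the deposited TPM. No counting interval is given for this median. The median over all measured genes moved as well, from -0.011 to 0.039 with the deposited TPM. Of 56 alternative values of the 8 genes 48 lay within the counting interval and 8 outside. Casp1 ranged from -1.496 to -1.30 and Ripk3 from 1.504 to 1.59. The sign of Casp8 changed with the deposited TPM (0.011) and with the neighbours subtracted (0.40), and that of Gsdmd with the neighbours subtracted (-0.19). Apart from that subtraction, no value of the 8 genes moved by more than 0.066. For 76 other genes, 463 of 532 values lay inside that interval and 69 beyond it. The 2-fold mark was crossed by Zbp1 (-1.03 with upper-quartile scaling, -1.19 with TPM and -1.22 with FPKM), Il33 (0.998 with total counts and 0.961 with the upper quartile) and, with neighbours subtracted, Birc3 (1.04) and Pmaip1 (0.887). The cause was not tested. Among the 8 genes, Gsdme had the fewest counts. Of the 76 other genes, Tnfsf10, Nlrp3 and Nlrp6 moved by over 1.5-fold, Nlrp6 from 7.65 to 4.39 with the pseudocount of 5, 3.32 on TPM and 2.30 on FPKM.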

Other observations

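Around Ripk3 on chromosome 14, the 9 genes higher by 2-fold or more in shGas6 include mast cell proteases and are here named after their values were seen. They lie among other genes within 2-fold, several of them lower, such as the proteasome activator genes Psme1 at a log2 ratio of -0.71 and Psme2 at -0.81. On one side of Ripk3 lay Pck2 at 1.04 (0.972 to 1.10), Rec8 at 3.20 (2.68 to 3.82) and Tgm1, a transglutaminase of stratified epithelia, at 4.61 (4.27 to 5.00). On the other side lay Cbln3 at 2.59 (2.35 to 2.84), Cma1 at 2.41 (1.56 to 3.48), Mcpt1 at 3.88 (3.66 to 4.11), Mcpt9 at 2.17 (1.51 to 2.95), Mcpt2 at 2.57 (2.36 to 2.79) and Mcpt4 at 1.69 (1.23 to 2.20). In the same group of protease genes, Mcpt8 was lower at -0.90 (-1.30 to -0.51) and Gzme stood at 0.06 (-0.12 to 0.24). The protease genes are close relatives and may share reads. Genes around Ripk3 that passed the filter through shGas6 alone were not set apart, and for such genes the direction was set by the filter. Nearer to Ripk3 than any of these, Cideb, 26571 bases away, had 403 and 361 counts, and its ratio had a counting interval that included 1.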
